A study of Mus musculus with 12 samples.

Results

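The mouse nuclear genes that encode the subunits of the respiratory chain and of ATP synthase were followed through RNA sequencing of C2C12 cells, a mouse myoblast line that fuses into multinucleated myotubes. The members were the protein-coding nuclear genes with the symbols of complex I subunits (Ndufa, Ndufb, Ndufc, Ndufs and Ndufv genes), Sdha to Sdhd of complex II, the Uqcr genes and Cyc1 of complex III, the Cox4 to Cox8 genes of complex IV and the Atp5 genes of complex V, without assembly factors and pseudogenes. This gave 86 of 48795 genes, of which 38 belonged to complex I, 4 to complex II, 9 to complex III, 18 to complex IV and 17 to complex V. One gene that the symbol rule names, Ndufb1-ps, had no row to analyse, and 10 pseudogene rows with matching symbols were left out. The study addressed whether ginsenoside Rc (gRc), a ginseng saponin, alters the state of muscle cells exposed to hydrogen peroxide (H2O2). Cells had been kept 5 days in differentiation medium, and each of 4 groups held 3 libraries. The vehicle group received 0.02% DMSO and the gRc group 10 µM gRc, each for 24 h. The H2O2 group received 0.25 mM H2O2 for 6 h after 18 h of pretreatment, and the gRc + H2O2 group received the same H2O2 after 10 µM gRc. The sample descriptions give 18 h for that gRc pretreatment and a tag on the same samples gives 24 h. The cell-type tag reads myoblasts, although the growth protocol describes differentiation. The labels do not say whether replicates were separate cultures, so every p-value rests on the variation among libraries, part of which may be technical.

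The respiratory chain is built from the inner-membrane complexes that pass electrons from NADH (complex I) and succinate (complex II) through coenzyme Q to complex III, and by cytochrome c to complex IV, where oxygen is reduced. The proton gradient made on the way drives ATP synthase (complex V). Apart from complex II, which is wholly nuclear-encoded, every complex joins nuclear subunits to a few encoded by mitochondrial DNA. Striated muscle carries tissue isoforms of several complex IV subunits, such as Cox6a2, Cox7a1 and Cox8b, which take the place of Cox6a1, Cox7a2 and Cox8a.

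Library totals ran from 19274762 to 31409066 expected counts. Vehicle replicates 1 and 3 and gRc replicate 3 held the ends of the first principal component of all genes tested (-68.6, 82.3 and 84.2), which held 43.1% of the variance. Replicates 1 and 3 of H2O2 came next to vehicle replicate 1 (-44.9 and -40.5), and the remaining libraries lay between -19.1 and 22.8, so that the lower end was less clearly parted than the upper. Markers of differentiated muscle (9 genes, among them Myh3, Myog and Ckm) summed to between 11532 and 12463 CPM (counts scaled to a common library size) in vehicle, 12025 and 13621 in gRc, 9049 and 9785 in H2O2 and 8940 and 10695 in gRc + H2O2. In this sum the groups without H2O2 lay above the groups with it, but 2 of the 9 had a log2 fold change above 0 in each comparison with H2O2. Of these 9 markers 0 passed the test with H2O2 against vehicle and 1, the myosin gene Myh8, with gRc + H2O2 against gRc (log2 fold change -0.62, edgeR adjusted p = 0.0347), a call lost in 7 of 12 fits with 1 library left out (gRc replicate 1 or 2, gRc + H2O2 replicate 1 or 2, or any H2O2 library). Markers of reserve myoblasts (4 genes) summed to between 68.9 and 87.7 CPM in vehicle and 52.0 and 68.5 in H2O2, and to between 64.5 and 75.8 in gRc and 50.4 and 55.6 in gRc + H2O2. Of these 4 markers 2, Pax7 and Id3, passed the test and were lower in both comparisons with H2O2. Pax7 had log2 fold changes of -1.27 and -1.15 and Id3 of -1.66 and -1.88. In each comparison 1 of the 4 had a value above 0. Markers of cycling cells (4 genes) summed to between 171 and 236 CPM in vehicle, 155 and 176 in H2O2, 235 and 267 in gRc and 158 and 193 in gRc + H2O2, and 0 passed the test. The 4 fibroblast-like markers summed to 3352 to 25222 CPM, nearly all from collagen genes, while Thy1 was at or near 0 in every library.

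Promoter windows from RefSeq (GRCm38.p6, 250 bases before to 50 after the start) were found for 69 of the 86 members, as 74 windows. Known regulators of these genes include NRF1, ETS-family factors, YY1 and the ERR receptors, and the letters of their motifs were searched on both strands. The centre of the NRF1 motif, CGCATGCG, was present in 9 of the 74 windows (12.2%), in 1.87% of all 32851 windows and in 2.52% of the 21263 windows of protein-coding genes. The ETS letters CCGGAAG were in 16 windows (21.6%), against 8.86% of all windows and 11.6% of protein-coding ones. The YY1 letters AAGATGGCG were in 7 (9.46%, against 1.40% and 1.83%) and the ERR letters AAGGTCA in 8 (10.8%, against 4.72% and 4.08%). The E-box CAGCTG, a form bound by myogenic factors, was in 6 (8.11%), against 16.3% and 15.6%. A match is a description of the letters and not of binding. Windows of 4 genes are printed because they form pairs that encode the same position of a complex and that differ in their levels below: Cox8a (the ubiquitous isoform, chr19:7217567-7217866, minus strand) with Cox8b (the striated muscle isoform, chr7:140900397-140900696, minus strand), and Atp5g2 (chr15:102670998-102671297, minus strand) with Atp5g3 (chr2:73911277-73911576, minus strand), whose mature products are the same subunit c. Capitals mark the ETS letters in Cox8a, the E-box in Cox8b, the NRF1 centre in Atp5g2 and the ERR letters in Atp5g3, in either orientation.
Cox8a: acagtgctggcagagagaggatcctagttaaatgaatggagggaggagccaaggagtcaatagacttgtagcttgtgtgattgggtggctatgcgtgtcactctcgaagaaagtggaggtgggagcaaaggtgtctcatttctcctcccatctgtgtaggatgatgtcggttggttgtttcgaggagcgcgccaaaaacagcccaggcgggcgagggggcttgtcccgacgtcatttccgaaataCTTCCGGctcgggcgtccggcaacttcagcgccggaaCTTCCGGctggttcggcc
Cox8b: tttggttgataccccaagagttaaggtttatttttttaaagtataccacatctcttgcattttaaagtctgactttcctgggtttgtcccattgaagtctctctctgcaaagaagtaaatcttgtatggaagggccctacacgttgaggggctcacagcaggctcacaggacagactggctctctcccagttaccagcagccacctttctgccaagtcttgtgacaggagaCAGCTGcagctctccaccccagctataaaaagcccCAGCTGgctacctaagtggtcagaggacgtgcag
Atp5g2: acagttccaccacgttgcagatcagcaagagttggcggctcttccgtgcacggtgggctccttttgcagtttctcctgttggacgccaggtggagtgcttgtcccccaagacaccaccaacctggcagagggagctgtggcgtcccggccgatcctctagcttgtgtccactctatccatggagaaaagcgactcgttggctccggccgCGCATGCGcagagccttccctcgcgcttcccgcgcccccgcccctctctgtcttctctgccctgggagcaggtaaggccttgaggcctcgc
Atp5g3: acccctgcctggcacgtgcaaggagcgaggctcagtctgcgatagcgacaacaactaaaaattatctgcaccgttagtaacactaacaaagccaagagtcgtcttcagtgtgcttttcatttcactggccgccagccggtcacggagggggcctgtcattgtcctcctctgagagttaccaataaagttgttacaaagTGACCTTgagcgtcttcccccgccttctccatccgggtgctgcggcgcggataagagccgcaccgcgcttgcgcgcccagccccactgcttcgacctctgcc
Cox8a held the ETS letters at bases 246 and 283 of its window and Cox8b held the E-box at bases 232 and 267, counted from the first base printed. Atp5g2 had its NRF1 match at base 210 and Atp5g3 its ERR match at base 199. None of the 5 motifs searched was shared between the members of either pair.

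Levels were compared between genes as TPM, in which the authors' quantification divides by effective length and scales each library to the same sum. The 86 members together held between 2.52% and 3.48% of all TPM. In vehicle the summed level was 10558 ± 977 TPM (SD, n = 3) for complex V, 8139 ± 3812 for complex IV, 7767 ± 360 for complex I, 3110 ± 505 for complex III and 712 ± 307 for complex II. The order of complexes IV and I did not exceed their spread, since vehicle replicate 1 alone had 12496 TPM of complex IV and the other vehicle libraries had 5424 and 6495. By mean TPM in vehicle the highest single member was Atp5b, the catalytic beta subunit of ATP synthase, with 2037, 3068 and 2413 TPM in the vehicle libraries. Its effective length there was 1571, 1019 and 768 bases. In vehicle replicate 1, Cox4i1 (4719 TPM), Cox6b1 (4513 TPM) and Atp5h (2642 TPM) were higher.

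Within the complexes, the leading gene of complex I by mean TPM in vehicle was Ndufb7, an accessory subunit of the membrane arm, with 988, 819 and 470 TPM. In complex III it was Uqcrh, the hinge protein, with 985, 785 and 491 TPM. In complex II it was Sdhc, a membrane anchor, with 642, 240 and 117 TPM. Sdhd, the other anchor, was lowest of complex II with 38.2, 60.3 and 116 TPM, so the anchors kept their order in each library but were nearly level in replicate 3. Cox6b1, on the intermembrane-space side of complex IV, led that complex with 4513, 1050 and 913 TPM, followed by Cox4i1 with 4719, 1012 and 669 TPM, and the order of this pair differed between libraries. The lowest tested members were Ndufs4 in complex I (16.9, 25.6 and 53.7 TPM), Uqcrc2, a core protein of complex III (90.5, 98.0 and 95.1 TPM), Cox7a1 in complex IV (36.8, 28.0 and 52.1 TPM) and Atp5s, the coupling factor B gene, in complex V (1.10, 2.72 and 4.63 TPM). The plot of levels per length shows the 81 members that passed the filter on low counts.

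**Figure D1:**
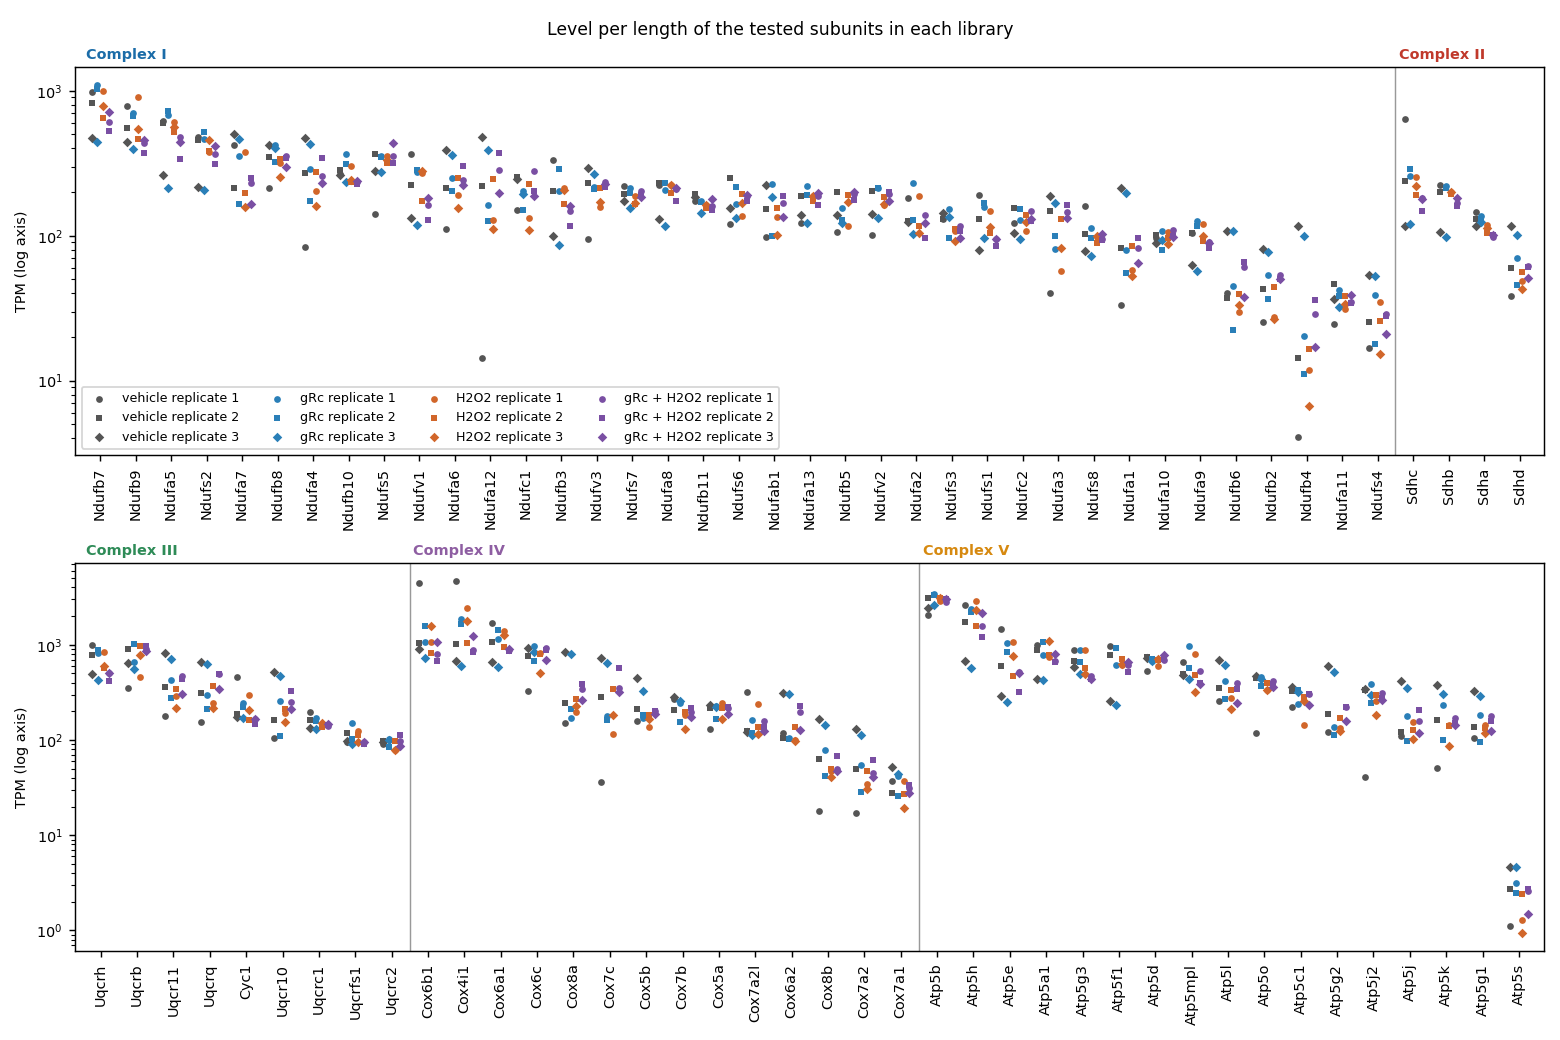
TPM (log axis) of the 81 tested members in each of the 12 libraries, ordered within each complex by the mean in vehicle; colours mark groups and symbols mark replicates. Atp5b stayed between 2037 and 3446 TPM in every library, whereas Ndufa12 ran from 14.3 TPM in vehicle replicate 1 to 477 TPM in vehicle replicate 3.

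The tissue isoforms were unevenly used. Cox6a1 had 1685, 1070 and 656 TPM in vehicle and the muscle isoform Cox6a2 had 119, 106 and 314 TPM, with no overlap. Cox8a had 149, 243 and 836 TPM and the muscle isoform Cox8b 18.0, 62.6 and 167 TPM, lower than Cox8a in each of the 3 libraries. Cox7a1 and its ubiquitous partner Cox7a2 had like levels, with 36.8, 28.0 and 52.1 TPM against 17.0, 49.9 and 130 TPM, and the related Cox7a2l, which links complexes III and IV in supercomplexes, had 317, 123 and 122 TPM. Of the genes for subunit c, Atp5g3 led with 873, 677 and 584 TPM, ahead of Atp5g2 (123, 187 and 596 TPM) and Atp5g1 (105, 138 and 325 TPM), and Atp5g2 passed Atp5g3 in vehicle replicate 3. Members of other tissues or of hypoxic cells were near 0. Cox4i2, the lung isoform, reached 0.48 TPM at most, Cox6b2 0.22, Cox7b2 0.16, Cox8c 0.20 and Ndufa4l2 0.76, and these 5 genes did not pass the filter. Their partners were well expressed, with Cox7b at 270, 205 and 283 TPM and Ndufa4 at 83.3, 270 and 476 TPM in vehicle. Ndufa4 counts with complex I by its symbol, although its protein is known as a subunit of complex IV.

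The widest variation among the members was between libraries of the same group. In vehicle, 32 of the 81 members (39.5%) were more than 2-fold higher in replicate 3 than in replicate 1 and 20 (24.7%) were more than 2-fold lower, against 15.5% and 13.0% of the 14838 genes tested. The SD of this log2 difference was 1.65 over the members and 1.10 over all genes. Ndufa12, an accessory subunit of complex I, had 4.22, 54.2 and 120 CPM in vehicle replicates 1 to 3, a difference of 4.68 on the log2 scale between replicates 3 and 1. Cox7c, a small complex IV subunit, had 8.99, 59.5 and 158 CPM. Ndufb4, a membrane-arm subunit, had 2.27, 7.05 and 54.2 CPM, but shares sequence with the pseudogene Ndufb4c, to which 4679 counts over all libraries were assigned, so its counts are uncertain.

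Other members went the opposite way in the same libraries. Cox4i1, the main isoform of subunit 4, had 1963, 355 and 240 CPM in vehicle, a log2 difference of -3.03 between replicates 3 and 1. Atp5e, the epsilon subunit of ATP synthase, had 274, 88.8 and 40.1 CPM, and Sdhc had 415, 144 and 76.6 CPM. Of the pairs printed above, Atp5g2 and Atp5g3 parted here, since Atp5g2 had 28.5, 44.7 and 211 CPM while Atp5g3 had 347, 228 and 202 CPM. Cox8a and Cox8b did not part, as both were higher in replicate 3 than in replicate 1, by log2 differences of 2.19 and 2.41. Members of every complex were found on both sides, with 11 of 37 in complex I more than 2-fold higher in replicate 3 and 7 lower, 1 and 2 of 4 in complex II, 3 and 2 of 9 in complex III, 8 and 4 of 14 in complex IV, and 9 and 5 of 17 in complex V.

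The gRc libraries parted along the same line. Cox4i1 had 653, 622 and 196 CPM in gRc replicates 1 to 3 and Atp5e 151, 130 and 31.2 CPM, whereas Cox7c had 37.7, 35.1 and 125 CPM and Atp5g2 33.8, 35.6 and 166 CPM. Replicate 3 was therefore the outlying library in gRc for each of these 4 genes. The log2 difference between replicates 3 and 1 in gRc correlated with that in vehicle at r = 0.87 across the 81 members and at 0.80 across the 14838 genes, as a description over genes that share the same 4 libraries. Of the members, 67 of 81 had the same sign in vehicle and gRc. Between replicates 3 and 1 of H2O2, 0 members were more than 2-fold higher and 4 (4.94%) more than 2-fold lower. The shares of all genes were 0.411% and 0.708%. H2O2 replicate 2 parted from replicate 1 along the same line, with 988 against 383 CPM of Cox4i1 and 180 against 71.9 of Atp5e in replicates 1 and 2, and 26.9 against 76.2 of Cox7c. Between these 2 libraries 1 member was more than 2-fold higher in replicate 2 and 4 were lower, against 1.17% and 1.28% of all genes. The sign of the vehicle difference was found in 66 of 81. In gRc + H2O2 0 of the 81 exceeded 2-fold between any pair of libraries, where at most 0.613% of all genes did so in either direction. Across the members the difference in vehicle had r = -0.12 with the GC content of the longest transcript, -0.15 with its log2 length and -0.54 with mean log2 CPM. Transcripts of the 13 subunits encoded by mitochondrial DNA moved with it, from 616 CPM in vehicle replicate 1 to 40701 in replicate 3 and from 4358 CPM in gRc replicate 1 to 40089 in replicate 3, and fibroblast-like markers moved against it, from 25222 to 3436 CPM in vehicle. Their part in the members' spread was not tested.

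**Figure D2:**
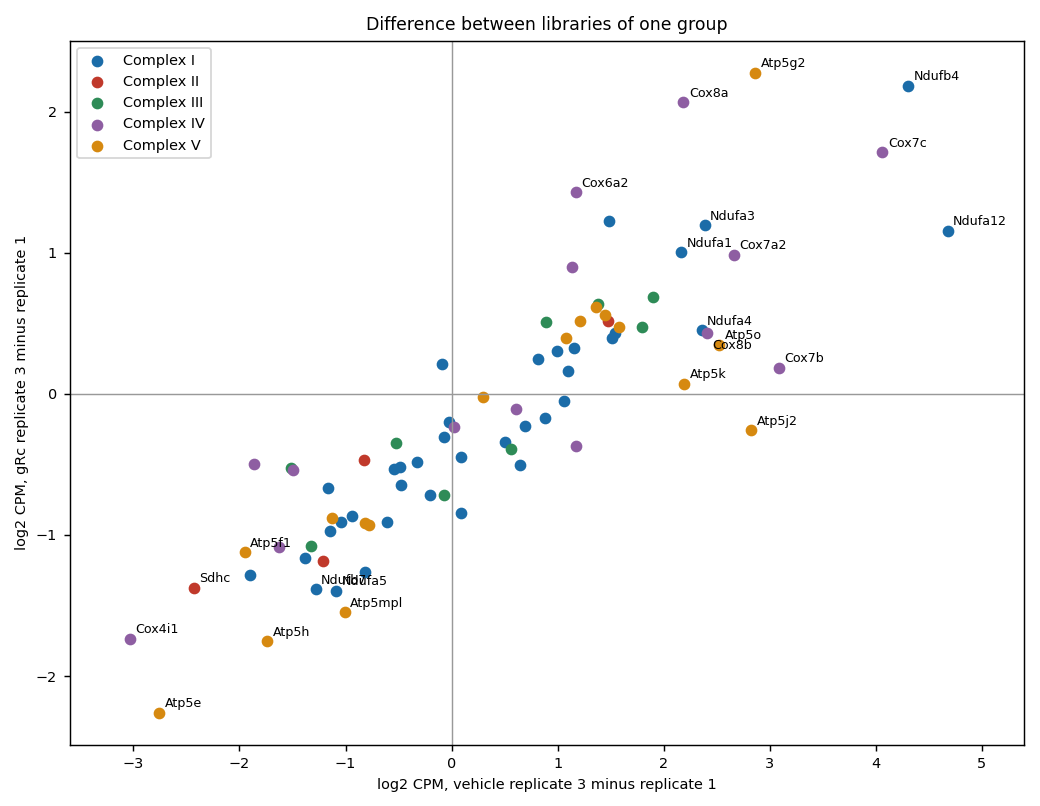
Difference in log2 CPM between replicates 3 and 1 of vehicle (horizontal) and of gRc (vertical) for the 81 tested members, coloured by complex. The points run from Cox4i1 and Atp5e at the lower left to Ndufa12, Ndufb4 and Cox7c at the right, with r = 0.87.

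The effective length, the transcript length that RSEM assigns from its mixture of isoforms, also varied. For 15 of the 81 members it differed by more than 1.5 times between libraries. For Cox7b it was 87 bases in vehicle replicate 1 and 641 to 757 bases in the other libraries, so that 17.2, 98.8 and 150 CPM in vehicle corresponded to 270, 205 and 283 TPM. Cox7b therefore ran over an 8.71-fold range of CPM and stayed between 129 and 283 TPM. For Cox4i1, Cox7c, Ndufa12 and Atp5e the CPM and the TPM moved the same way. Isoform use and the assignment of reads to isoforms cannot be told apart in these values.

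H2O2 against vehicle asked what the oxidant did to these genes. No subunit passed the test: 0 of 81 rose and 0 fell at an adjusted p under 0.05 (edgeR's quasi-likelihood test, Benjamini-Hochberg over 14838 genes), while 7.81% of all genes tested rose and 7.84% fell. At an unadjusted p under 0.05 there was 1 member, Ndufb2, against 29.8% of all genes, and DESeq2 called 0 members with 1 at an unadjusted p under 0.05. The groups did not overlap for 1 of the 81 members, Ndufb11, which was lower in H2O2, against 31.1% of all genes. The median log2 fold change was -0.15 over the members and -0.06 over all genes, with 25 members above 0 and 56 below. With 1 library left out the median of the members ran from -0.25 to -0.036. In bulk RNA, fewer cells of a type and less RNA per cell cannot be told apart, and the lower sum of muscle markers in H2O2 was measured in the same libraries.

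Ndufb2, an accessory subunit of the complex I membrane arm, had 9.65, 14.5 and 22.0 CPM in vehicle and 8.44, 11.7 and 8.11 in H2O2. H2O2 replicates 1 and 3 lay below every vehicle library, and replicate 2 lay within the vehicle range. Its log2 fold change was -0.71 (95% interval -1.32 to -0.10, edgeR adjusted p = 0.109). This value passed the threshold without vehicle replicate 1, at an adjusted p of 0.0174 (range over the alternatives 0.0174 to 0.515). Ndufs3, a core subunit of the arm that carries electrons to coenzyme Q, had 79.8, 65.7 and 78.6 CPM in vehicle and 66.3, 57.2 and 52.2 in H2O2, a log2 fold change of -0.35 (-0.71 to 0.01, edgeR adjusted p = 0.180). Ndufc1, a small membrane-arm subunit, had a log2 fold change of -0.56 (-1.19 to 0.08).

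Complex IV had the lowest median of the complexes, -0.48, with 3 of 14 members above 0. Cox5b, a zinc-binding subunit on the matrix side, had 76.5, 89.6 and 169 CPM in vehicle and 67.5, 81.1 and 79.1 in H2O2, where the high vehicle value was that of replicate 3. Its log2 fold change was -0.56 (-1.20 to 0.09, edgeR adjusted p = 0.232). For Cox6b1 the vehicle libraries had 826, 192 and 227 CPM and the H2O2 libraries 267, 188 and 293, and the value of -0.74 (-1.78 to 0.30) became 0.25 without vehicle replicate 1. The muscle isoform Cox7a1 had 5.88, 3.67 and 5.99 CPM in vehicle and 5.41, 3.53 and 2.73 in H2O2, a log2 fold change of -0.41 (-1.03 to 0.20).

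In complex V the median was -0.19, and the members with the smallest p were Atp5l, the g subunit (-0.56, -1.26 to 0.13), Atp5s (-0.82, -1.88 to 0.24) and Atp5g2 (-1.20, -2.85 to 0.44). The value of Atp5g2 rested on vehicle replicate 3, where it had 211 CPM, and was 0.15 without that library. In complex III the median was -0.28, with Uqcr11 at -0.55 (-1.44 to 0.33), Uqcrc2 at -0.32 (-0.87 to 0.24) and Uqcrb, which helps to bind coenzyme Q, at 0.29 (-0.45 to 1.04). Complex II had Sdhd at -0.48 (-1.24 to 0.28), Sdhc at -0.36 (-1.55 to 0.82) and Sdhb, the iron-sulfur subunit, at 0.21 (-0.53 to 0.94). Complex I had a median of -0.02 and held the lowest and highest values of all members, Ndufb4 at -1.78 and Ndufs5 at 0.49.

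How closely a change was bounded differed between subunits. For 38 of the 81 members the 95% interval lay within a 2-fold change in either direction, a share of 46.9% against 49.4% of all genes. They included 24 of 37 in complex I and 2 of 14 in complex IV. Among the core subunits, Uqcrc1 had 194, 149 and 134 CPM in vehicle and 148, 133 and 155 in H2O2, and Sdha, the flavoprotein of complex II, had 283, 214 and 159 CPM in vehicle and 221, 176 and 205 in H2O2. Atp5b had 2337, 2005 and 1323 CPM in vehicle and 2608, 2026 and 2230 in H2O2. Atp5a1, the alpha subunit beside it in the catalytic head, had 1359, 1214 and 624 CPM in vehicle and 1091, 1078 and 1446 in H2O2. Ndufv1, which binds NADH and the flavin of complex I, had 251, 134 and 96.0 CPM in vehicle and 196, 111 and 169 in H2O2. Cox5a had 49.6, 68.9 and 75.8 CPM in vehicle and 88.7, 72.7 and 58.9 in H2O2. All 6 overlapped between the groups.

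**Figure D3:**
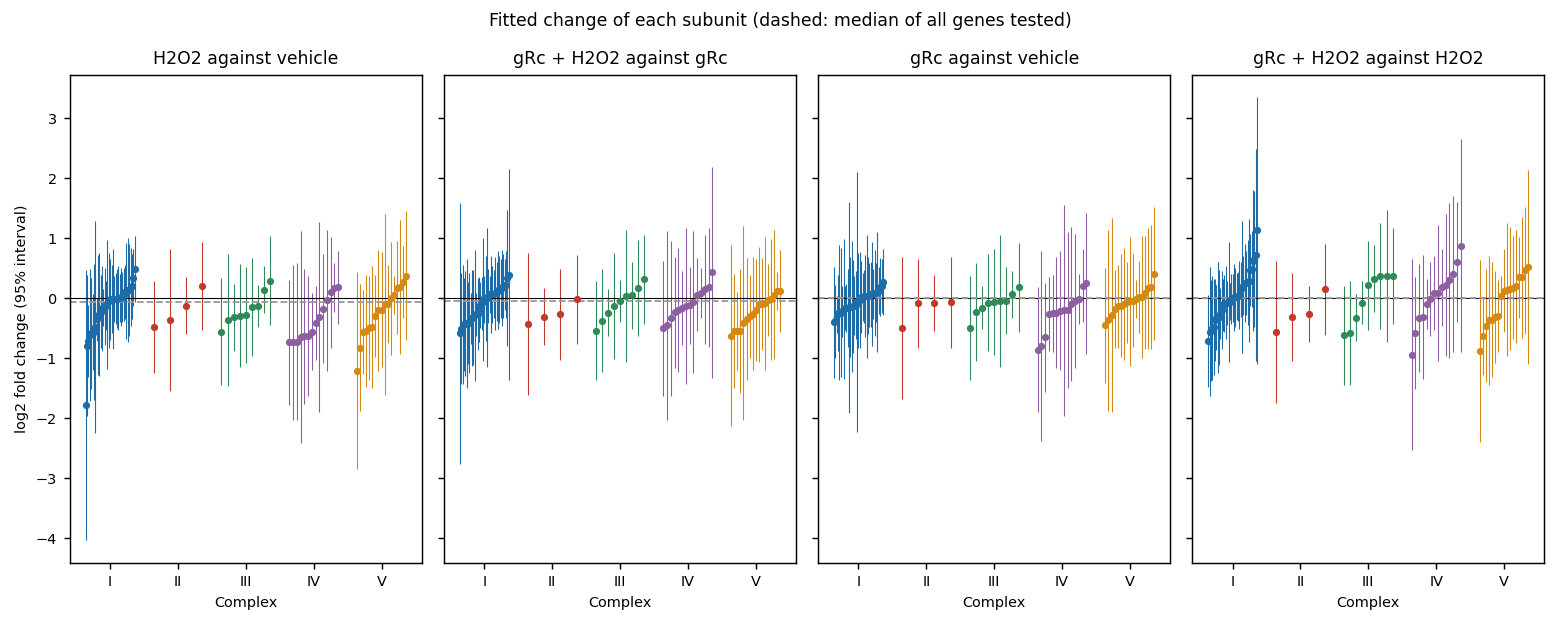
Log2 fold change of each tested member with its 95% interval, by complex, in the 4 comparisons; the dashed line is the median of all genes tested. All 4 panels have points around 0, with the widest intervals for Ndufb4 and for members of complexes IV and V.

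The comparison of gRc + H2O2 with gRc asked the same of cells pretreated with gRc. Again 0 of 81 members rose and 0 fell, while 7.57% of all genes tested rose and 8.15% fell. At an unadjusted p under 0.05 there were 0 members by edgeR and 0 by DESeq2, against 28.2% of all genes by edgeR. The groups overlapped for every member, against 38.7% of all genes without overlap. The median log2 fold change was -0.10, beside -0.04 over all genes, with 30 members above 0 and 51 below. The interval lay within a 2-fold change for 37 members (45.7%), against 50.0% of all genes.

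Atp5g3 had 294, 238 and 154 CPM in gRc and 161, 148 and 160 in gRc + H2O2, the latter close together at the lower end of the gRc range. Its log2 fold change was -0.55 (-1.20 to 0.11, edgeR adjusted p = 0.261). In complex I, Ndufb10 of the membrane arm had 125, 114 and 75.8 CPM in gRc and 81.2, 78.9 and 89.6 in gRc + H2O2 (log2 fold change -0.33, -0.76 to 0.09). Ndufs3 had -0.27 (-0.63 to 0.09) and Ndufs1, the large iron-sulfur subunit of the NADH-oxidising module, -0.41 (-1.09 to 0.27). In complex II, Sdha had -0.31 (-0.78 to 0.17), Sdhc -0.43 (-1.61 to 0.76) and Sdhd -0.27 (-1.03 to 0.49).

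The members named from the remaining complexes also had values below 0 with intervals that crossed it. In complex III, Uqcrh had a log2 fold change of -0.54 (-1.36 to 0.28), the Rieske iron-sulfur protein Uqcrfs1 -0.24 (-0.63 to 0.15) and cytochrome c1, Cyc1, -0.37 (-1.23 to 0.49). In complex IV, Cox8b had 8.02, 4.51 and 11.01 CPM in gRc and 4.90, 6.47 and 5.28 in gRc + H2O2, a log2 fold change of -0.50 (-1.62 to 0.62). Cox4i1 had -0.45 (-2.03 to 1.13) and Cox7a1 -0.16 (-0.77 to 0.45). In complex V, Atp5mpl, a small proteolipid of ATP synthase, and Atp5s each had -0.55, with intervals of -1.50 to 0.40 and -1.58 to 0.49.

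This comparison changed when the 3 libraries at the ends of the first principal component (vehicle replicates 1 and 3 and gRc replicate 3) were left out together, which leaves gRc with 2 libraries. Then 18 of 82 members passed, 6 higher and 12 lower, where 16.8% of all genes tested rose and 16.6% fell. The higher members were Cox7c (log2 fold change 1.28), Ndufa12 (0.96), Cox6a2 (0.81), Ndufa3 (0.80), Cox8a (0.77) and Atp5g2 (0.76). Among the lower members were Atp5e (-1.06), Uqcrh (-0.85), Ndufb3 (-0.79), Sdhc (-0.78), Atp5g3 (-0.77), Ndufb7 (-0.76), Ndufv1 (-0.70), Ndufs1 (-0.68) and Ndufa5 (-0.68). Ndufb10 (-0.53), Sdha (-0.47) and Ndufa9 (-0.44) completed them. The 6 higher members were also higher in vehicle replicate 3 than in replicate 1, and the 12 lower members were lower there. Of the 63 members that did not pass here and were also tested in the fit to all 12 libraries, 47 (74.6%) had the sign of that difference. The libraries left out were the ends of the same line, so this agreement is in part fixed by leaving them out. For Cox7c the kept gRc libraries had 37.7 and 35.1 CPM and the gRc + H2O2 libraries 74.6, 120 and 72.4, while gRc replicate 3 had 125. In Atp5e the kept gRc libraries had 151 and 130 CPM and the gRc + H2O2 libraries 76.2, 45.6 and 81.6, while gRc replicate 3 had 31.2. Leaving out gRc replicate 3 alone gave 0 calls.

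**Figure D4:**
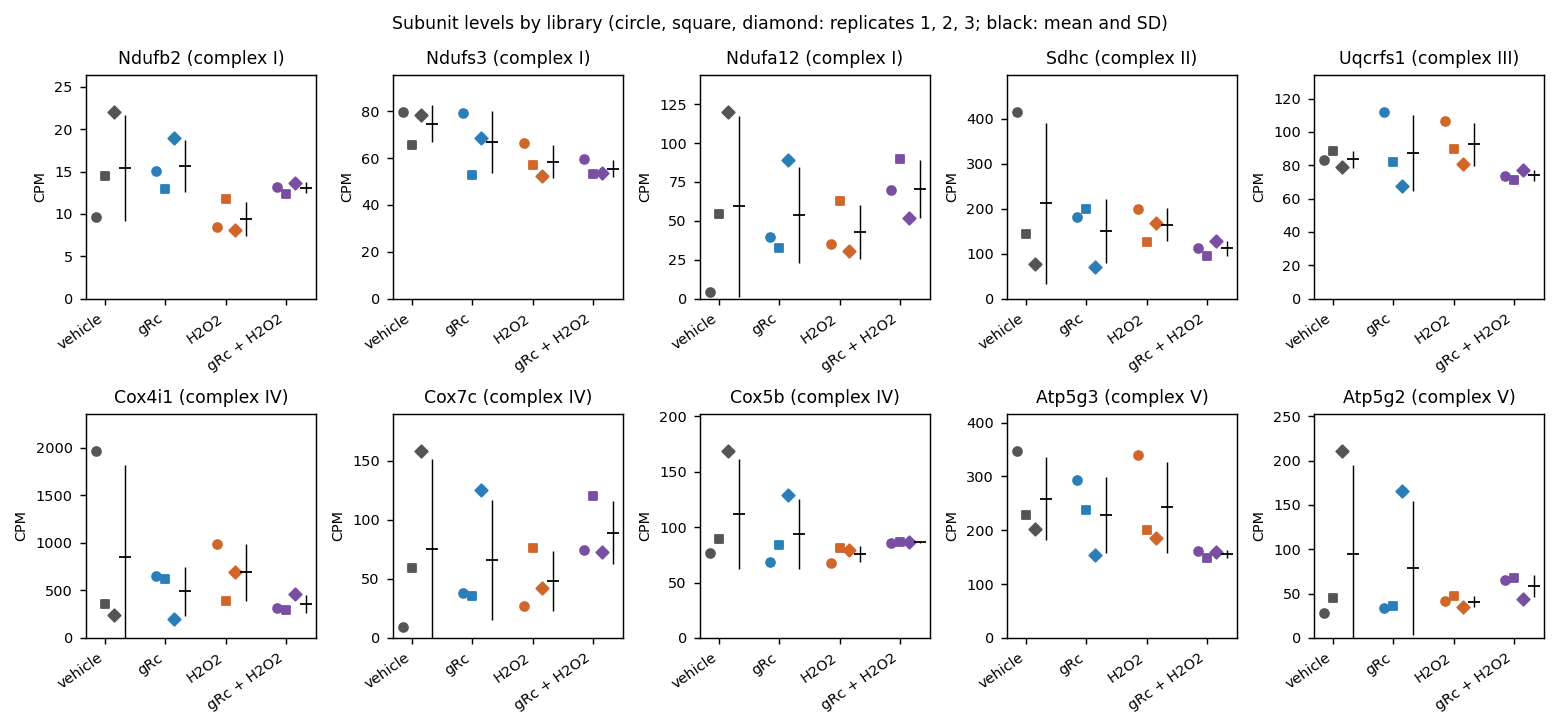
CPM of 10 members in each library by group, with the mean and SD in black. Vehicle replicate 1 and replicates 3 of vehicle and gRc lie towards opposite ends for Cox4i1, Cox7c, Ndufa12, Sdhc and Atp5g2, and the H2O2 libraries of Ndufb2 reach 11.7 CPM at most.

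The comparison of gRc + H2O2 with H2O2 asked whether the pretreatment altered the levels under the oxidant. No member passed, as 0% of all genes tested did (edgeR), and DESeq2 called 2 genes and 0 members. At an unadjusted p under 0.05 there were 0 members by edgeR and 1 by DESeq2, against 0.822% of all genes by edgeR. The groups did not overlap for 16 of the 81 members (19.8%), 7 higher and 9 lower in gRc + H2O2, against 15.3% of all genes. The median log2 fold change was 0.02, beside -0.00 over all genes, with 43 members above 0 and 38 below. The interval lay within a 2-fold change for 33 members (40.7%), against 65.1% of all genes.

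Atp5g3 had 341, 200 and 186 CPM in H2O2 and 161, 148 and 160 in gRc + H2O2, which did not overlap. Its log2 fold change was -0.63 (-1.28 to 0.02, edgeR adjusted p = 0.922). Ndufb2 lay the other way, with 8.44, 11.7 and 8.11 CPM in H2O2 and 13.2, 12.4 and 13.7 in gRc + H2O2, again without overlap (log2 fold change 0.47, -0.13 to 1.08). Ndufc1 had 14.6, 21.5 and 11.4 CPM in H2O2 and 26.9, 20.8 and 18.9 in gRc + H2O2, a log2 fold change of 0.49 (-0.15 to 1.12). Its groups overlapped. Ndufb9, of the membrane arm, had 302, 143 and 180 CPM in H2O2 and 129, 108 and 144 in gRc + H2O2 (-0.71, -1.49 to 0.06), where the high value was that of H2O2 replicate 1.

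Uqcrfs1 had 107, 89.5 and 81.0 CPM in H2O2 and 73.5, 71.0 and 77.5 in gRc + H2O2, without overlap, and a log2 fold change of -0.32 (-0.71 to 0.07). Uqcrh (-0.62, -1.44 to 0.21), Cox6a1 (-0.58, -1.51 to 0.35) and Sdhb (-0.31, -1.05 to 0.43) were also lower without overlap. Cox6a1 and its muscle isoform stood on opposite sides of 0, with Cox6a2 at 0.60 (-0.39 to 1.60). Cyc1 had -0.58 (-1.44 to 0.28), Cox4i1 -0.94 (-2.53 to 0.65), Atp5e -0.88 (-2.40 to 0.64), Sdha -0.26 (-0.73 to 0.21) and Sdhc -0.56 (-1.74 to 0.63). Atp5c1, the gamma subunit that forms the rotor stalk, had 0.35 (-0.33 to 1.03). The highest value was that of Ndufb4, 1.14, with 6.48, 8.28 and 3.76 CPM in H2O2 and 14.1, 17.6 and 9.01 in gRc + H2O2. Transcripts of the 13 mitochondrially encoded subunits summed to 865, 1684 and 737 CPM in H2O2 and 2512, 3979 and 1229 in gRc + H2O2, and their part in these values was not tested.

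The comparison of gRc with vehicle asked about gRc alone. No member passed, as 0% of all genes tested did (edgeR), and DESeq2 called 0 genes. At an unadjusted p under 0.05 there were 0 members by edgeR and 0 by DESeq2, against 0.499% of all genes by edgeR. The groups did not overlap for 1 member, Ndufb11, against 1.61% of all genes. Ndufb11 was also the member without overlap in H2O2 against vehicle, with 85.9, 74.9 and 83.9 CPM in H2O2. The median log2 fold change was -0.07, beside 0.00 over all genes, with 27 members above 0 and 54 below. It was 0.08 without vehicle replicate 3. The interval lay within a 2-fold change for 48 members (59.3%), among them 28 of 37 in complex I, against 71.4% of all genes.

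Ndufb11, an X-linked membrane-arm subunit, had 93.6, 89.1 and 89.1 CPM in vehicle and 78.1, 84.2 and 62.9 in gRc, a log2 fold change of -0.27 (-0.58 to 0.04, edgeR adjusted p = 1.00). In the same complex Ndufs8, an iron-sulfur subunit, had -0.39 (-0.995 to 0.224) and Ndufb5 -0.22 (-0.64 to 0.20). Several other values were set by the single high vehicle replicate 1. Cox6b1 had 826, 192 and 227 CPM in vehicle and 236, 284 and 167 in gRc (-0.86, -1.90 to 0.18), and 0.13 without that library. Cox7a2l had 209, 69.6 and 73.8 CPM in vehicle and 90.5, 71.7 and 62.0 in gRc (-0.65, -1.56 to 0.26), and 0.06 without it. Cox4i1 had -0.80 (-2.39 to 0.79), and 0.72 without it.

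Cyc1 had -0.50 (-1.36 to 0.37), Uqcrc1 -0.16 (-0.51 to 0.20) and Uqcrh -0.22 (-1.04 to 0.60) in complex III. Complex II had Sdhc at -0.49 (-1.68 to 0.69), Sdha at -0.08 (-0.55 to 0.40) and Sdhb at -0.09 (-0.82 to 0.65). In complex V, Atp5f1, the b subunit of the stator, had -0.45 (-1.41 to 0.51), Atp5g3 had -0.18 (-0.83 to 0.47) and Atp5j2, the f subunit, had 0.41 (-0.70 to 1.52). None of these 9 values kept its sign when vehicle replicate 1 was left out.

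The difference between the responses to H2O2 with and without gRc was tested as an interaction. No member passed, as 0% of all genes tested did (edgeR), and DESeq2 called 1 gene and 0 members. At an unadjusted p under 0.05 there were 0 members by edgeR and 0 by DESeq2, against 0.586% of all genes by edgeR. The median difference was 0.09 over the members, beside 0.00 over all genes, and its interval lay within 2-fold for 21 of 81 members (25.9%), against 50.3% of all genes. The smallest p belonged to Ndufc1, whose response was 0.74 higher with gRc (-0.16 to 1.63). For Ndufs3 and Uqcrc1 the interval was inside a 2-fold difference. A 2-fold difference in the response could therefore not be bounded for most members at this spread.

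The use of muscle isoforms was compared as the log2 ratio of TPM within each library. For Cox6a2 to Cox6a1 the vehicle libraries had -3.82, -3.33 and -1.06 and the H2O2 libraries -3.79, -2.80 and -3.71. The gRc libraries had -3.44, -3.82 and -0.95 and the gRc + H2O2 libraries -2.18, -1.91 and -2.83. Replicates 3 of vehicle and gRc were the highest of all 12 libraries. The mean difference was -0.69 for H2O2 against vehicle and 0.43 for gRc + H2O2 against gRc, with an exact two-sided permutation p of 0.7 in each case. With 3 libraries against 3, the smallest p this test allows is 0.1.

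For Cox7a1 to Cox7a2 the vehicle libraries had 1.09, -0.82 and -1.31 and the H2O2 libraries 0.11, -0.79 and -0.63, a mean difference of -0.09 (exact permutation p = 1). With gRc the difference was -0.02 (exact permutation p = 1). The Cox8b to Cox8a ratio was -3.02, -1.95 and -2.32 in vehicle and -2.05, -2.43 and -2.45 in H2O2, a mean difference of 0.12 (exact permutation p = 0.9). In gRc it was -1.10, -2.33 and -2.47 and in gRc + H2O2 -2.79, -2.49 and -2.44, a mean difference of -0.61 (exact permutation p = 0.2). Each of the 6 comparisons had an adjusted p of 1. The ratios varied less in the groups with H2O2, where the SD was 0.55 and 0.47 for Cox6a2 to Cox6a1, than in vehicle and gRc, where it was 1.47 and 1.56. This difference in spread was not tested.

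**Figure D5:**
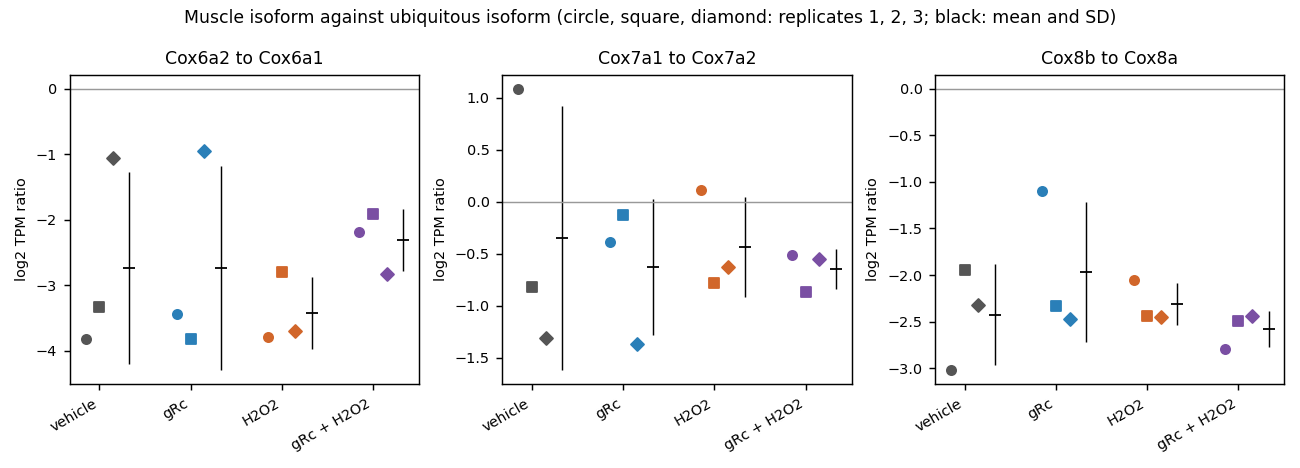
Log2 ratio of TPM of the muscle isoform to the ubiquitous isoform in each library, with the mean and SD in black. Cox6a2 lies below Cox6a1 in all 12 libraries and Cox8b below Cox8a in all 12, while the Cox7a1 to Cox7a2 ratio runs from -1.37 to 1.09.

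Genes that build or feed the chain were counted beside the members. Of 48 tested assembly factors 1 rose and 0 fell with H2O2 against vehicle, and likewise with gRc + H2O2 against gRc, where 7.81% and 7.57% of all genes rose and 7.84% and 8.15% fell. The gene was Sco2, which delivers copper to complex IV, with 5.48 ± 3.17 CPM (SD, n = 3) in vehicle, 13.7 ± 1.53 in H2O2, 5.98 ± 0.64 in gRc and 15.3 ± 0.81 in gRc + H2O2. Its log2 fold change was 1.32 against vehicle (edgeR adjusted p = 0.0169) and 1.35 against gRc (edgeR adjusted p = 0.0151). With 1 library left out these values ran from 1.06 to 1.88 and from 1.28 to 1.40, and the adjusted p reached 0.0565 (without H2O2 replicate 1, H2O2 replicate 2 or vehicle replicate 2 the first call was lost) and 0.0514 (without gRc + H2O2 replicate 1 or gRc replicate 2 the second was lost). The median of the assembly factors was -0.13 and -0.07 in these comparisons. Of 15 tested carriers and feeders of electrons, 0 rose and 0 fell in any comparison of the fit to all 12 libraries. With vehicle replicates 1 and 3 and gRc replicate 3 left out together, their median for gRc + H2O2 against gRc moved from 0.04 to -0.06. That of the assembly factors moved from -0.07 to -0.11 there. With H2O2 all 13 mitochondrially encoded subunits had fitted values below 0 in both comparisons, with medians of -3.88 and -2.53 where the members had -0.15 and -0.10. Each of these medians of the 13 came nearer to 0 without replicate 3 of the group that lacked H2O2. With vehicle replicates 1 and 3 and gRc replicate 3 left out together they were -2.41 and -0.62. The summed level was 616, 6000 and 40701 CPM in vehicle and 865, 1684 and 737 in H2O2, so vehicle replicate 1 lay below every H2O2 library, and the median was -1.72 without vehicle replicate 3. In gRc it was 4358, 4493 and 40089 CPM and in gRc + H2O2 2512, 3979 and 1229, and the median was -0.64 without gRc replicate 3. One of the 13, mt-Nd6, passed the test in each comparison, and the second call was lost in 8 of 12 fits with 1 library left out (gRc replicate 2 or 3, any gRc + H2O2 library, H2O2 replicate 1 or 3, or vehicle replicate 2). Against vehicle 1 to 11 of the 13 passed with 1 library left out, 11 of them without vehicle replicate 1 and 5 without gRc replicate 3. The share of all genes that passed in those fits was not set beside these counts, so they are not a result about the 13. The median without vehicle replicate 1 was -4.36.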

How the data were processed

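The authors trimmed reads with Trim Galore, checked them with FastQC, aligned them with STAR (2.7.3a) to GRCm38 (mm10) and quantified genes with RSEM (1.3.3), as the processing notes state. The authors deposited, for each library and gene, an expected count (fragments assigned by RSEM, not normalized), TPM (scaled per effective length within a library) and the effective length in bases. RSEM's strand setting is not given in the sources used here, so overlapping and antisense genes are uncertain. RSEM divides reads shared with near-identical copies, which can blur members that have pseudogenes.

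Expected counts of all 12 libraries were rounded and fitted together in edgeR (4.0.16, R 4.3.3) with TMM factors after filterByExpr, which kept 14838 of 48795 genes and 81 of 86 members. Group contrasts used the quasi-likelihood F test with Benjamini-Hochberg adjustment over 14838 genes and a threshold of 0.05. Dividing the absolute log2 fold change by the root of F gave a standard error, from which 95% intervals were taken. CPM use the same TMM factors. The common biological coefficient of variation was 0.295. On simulated data made from these libraries, edgeR recovered for H2O2 against vehicle 25 of 98 genes given a 2-fold change and 70 of 102 given a 4-fold change, among 14838 genes. No other genes were changed there, whereas 2323 genes passed in the data. The adjustment is stricter where fewer genes change, so these shares do not give the recovery in the data. Isoform ratios used log2(TPM + 0.5) and an exact permutation test. Library contrasts used log2(CPM + 0.5).

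The alternatives were DESeq2 (1.42.0), other size factors, other filters, a fit of only the groups compared, a replicate block, effective-length offsets, length and GC splines with 5 degrees of freedom, limma (3.58.1) on log2(TPM + 0.5), no mitochondrial genome, and libraries left out. Replicate numbers were checked for pairing by correlating deviations from group means across all genes. For gRc and vehicle they were 0.46, 0.27 and 0.86 for replicates 1, 2 and 3, all over 0.1. Deviations from a mean of 3 libraries constrain each other, so these values are not independent. Replicate 3 stood at the upper end of the first principal component in both groups. The labels do not say that the numbers pair the libraries, and these correlations cannot decide it. In the other comparisons at least 1 of the 3 was under 0.1.

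Members, lists and the 3 libraries left out together were chosen with earlier results of these data known. Named in the text were every member past the threshold, the 3 smallest p per complex and comparison, the highest and lowest member of each complex, isoform families, core subunits and the list members past the threshold; others were named for the largest difference between libraries, after their values were seen. The FPKM column was not used. The paper's other assays were not analysed here.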

Additional observations from a re-analysis of the deposited data

How the results depend on the processing

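Counts of members called were 0 under every setting run except those named here. For H2O2 against vehicle 1 member fell (Ndufb2) with the length trend removed, 1 with the GC trend removed, and 1 with the GC trend removed together with the replicate block, and leaving out 1 library gave 0 to 1. With vehicle replicates 1 and 3 and gRc replicate 3 left out together, 6 members rose and 12 fell in gRc + H2O2 against gRc, and this leaves a lone vehicle library, assumed to vary like the other groups. Size factors, filters, offsets, DESeq2, the mitochondrial genome left out and the replicate block turned no named value or median. The replicate block alone, common to all groups, gave 0 calls in each comparison and medians of -0.092 for H2O2 against vehicle and -0.048 for gRc against vehicle. For H2O2 against vehicle the deviations of the replicate 3 libraries correlated at -0.28, so the block does not stand for a pairing there. The median for gRc against vehicle moved to 0.079 without the 3 libraries and ran from -0.17 to 0.080 with 1 library left out.

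Directions of single genes turned when 1 library was left out, with these lowest and highest log2 fold changes. For H2O2 against vehicle they were Atp5g2 (-1.63 to 0.15), Cox6b1 (-1.09 to 0.25), Sdhd (-0.75 to 0.050), Uqcr11 (-0.87 to 0.074), Sdhc (-0.78 to 0.58) and Sdhb (-0.080 to 0.50). For gRc against vehicle they were Cox6b1 (-1.21 to 0.13), Cox7a2l (-0.93 to 0.061), Ndufs8 (-0.62 to 0.040), Cyc1 (-0.76 to 0.21), Cox4i1 (-1.25 to 0.72), Atp5f1 (-0.80 to 0.27), Uqcrc1 (-0.28 to 0.011), Sdhc (-0.91 to 0.45), Atp5j2 (-0.064 to 0.85), Atp5g3 (-0.42 to 0.093), Uqcrh (-0.51 to 0.15), Sdha (-0.27 to 0.16) and Sdhb (-0.37 to 0.21), and for gRc + H2O2 against gRc Sdhd (-0.47 to 0.013). Without the 3 libraries the values that turned were, for H2O2 against vehicle, Cox6b1 (0.36), Cox7a1 (0.069), Uqcrb (-0.19) and Sdhc (0.18), for gRc against vehicle Cox6b1 (0.43), Cox7a2l (0.21), Ndufs8 (0.066), Cyc1 (0.36), Cox4i1 (0.84), Atp5f1 (0.23), Uqcrc1 (0.040), Sdhc (0.40), Atp5g3 (0.22), Uqcrh (0.13), Sdha (0.10) and Sdhb (0.14), and for gRc + H2O2 against gRc Sdhd (0.023). In gRc + H2O2 against H2O2 no named value turned, but the median of the members ran from -0.024 to 0.085 with 1 library left out. By limma on TPM, Sdha in gRc against vehicle was 0.0033. Isoform ratios turned in H2O2 against vehicle for Cox6a2 to Cox6a1 (-1.24 to 0.14), Cox7a1 to Cox7a2 (-0.57 to 0.63) and Cox8b to Cox8a (-0.18 to 0.36), and in gRc + H2O2 against gRc for Cox6a2 to Cox6a1 (-0.12 to 1.32) and Cox7a1 to Cox7a2 (-0.39 to 0.23), where Cox7a1 to Cox7a2 was 0.018 from expected counts. The cause of these changes was not tested. The 5 members below the filter were not tested in the fit to all 12 libraries, of which the lowest had 19274762 counts.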
